A study of Mus musculus with 3 samples.

Results

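Bach1 and 9 genes of heme and iron handling were followed in MigA9 cells exposed to DB818. These 10 genes, Bach1, Nfe2l2, Hmox1, Fth1, Ftl1, Tfrc, Alas1, Fech, Blvrb and Slc11a2, were picked by their gene name on the array, out of 27389 genes named there. They are covered by 17 probes, and all 10 were measured on all 3 arrays, as were 10957 genes in all. MigA9 is a mouse myeloid cell line transformed by Hoxa9, grown in RPMI with serum and GM-CSF-conditioned medium, and DB818 is a compound that binds AT-rich stretches in the minor groove of DNA. Exposure to DB818 at 2.5 µM lasted 6, 12 or 24 h, and the comparison cells were the same line without the compound. Both arms carry Hoxa9, so no cell without it enters any comparison. Each time had 1 two-colour array, with treated RNA in Cy5 and untreated RNA in Cy3. No dyes were swapped, and the sources used here do not say whether the 3 untreated samples came from separate cultures.

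Values below are log2 ratios of treated over untreated signal, from 1 array per time. With limma, each gene's mean ratio across the times was compared with 0, and a gene is said to have risen or fallen when its Benjamini-Hochberg adjusted p over all 10957 genes was under 0.05. The p-values therefore rest on the spread between the 3 times, which limma moderates toward that of all genes. The prior had 4.8 degrees of freedom, against 2 from the arrays. Values after ± are SEs from this moderated spread, and they can differ from the plain SE of the 3 ratios. A constant dye bias stays within the mean. Single times have no replicate and no test, and there a log2 ratio of at least 0.32 in size served as a mark of size. In bulk RNA, fewer cells of one kind and less RNA per cell cannot be told apart. Repeated spots of a probe differed by an SD of 0.04, 0.03 and 0.05 log2 units on the 6, 12 and 24 h arrays.

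Heme is made in mitochondria and cytosol by a chain of enzymes that begins with 5-aminolevulinate synthase (Alas1) and ends with ferrochelatase (Fech), which inserts iron into protoporphyrin. Heme oxygenase (Hmox1) opens the ring again and releases the iron, which is stored in ferritin (Fth1, Ftl1) or exported. Bach1 is a repressor that pairs with small Maf proteins on antioxidant response elements and keeps Hmox1, the ferritins and other targets low. Heme binding removes Bach1 from DNA, and Nrf2 (Nfe2l2) activates through the same elements.

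The start of Bach1 is shown because this gene carried the highest ratio of the 10. The stretch covers the 250 bases before its RefSeq start, chr16:87698704-87698953 on the plus strand of GRCm38.p6, and capitals mark its 3 GC boxes (GGGCGG).
Bach1: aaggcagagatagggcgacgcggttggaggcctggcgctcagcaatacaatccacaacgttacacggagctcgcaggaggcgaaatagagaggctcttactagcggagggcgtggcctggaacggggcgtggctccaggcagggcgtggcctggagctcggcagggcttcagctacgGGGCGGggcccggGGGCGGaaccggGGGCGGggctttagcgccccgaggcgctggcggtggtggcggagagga

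The longest unbroken run of A and T in the Bach1 window (250 bases before to 50 after the start) was 5 bases, against a median of 7 over all 32851 RefSeq windows of that length, of which 30.4% had a run as short or shorter. A GC box on either strand was present in 35.7% of all windows and in 38.2% of genes. The RefSeq table held windows for 7 of the 10 genes, and all 7 had a GC box. The shares cover all RefSeq genes, and the share among genes measured here was not computed, so no trait of the 7 is read from this. It held none for Hmox1, Fech and Slc11a2, so these were not searched. The antioxidant response core TGACNNNGC, searched on both strands and found in 12.4% of all windows, matched in 1 of the 7 genes, Nfe2l2, at bases -240 to -232 from its start (chr2:75704895-75704903, minus strand, the match in capitals).
Nfe2l2: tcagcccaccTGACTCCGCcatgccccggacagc

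Neither TGAGTCA, the core bound by AP-1-type dimers, nor TGATTTA, a Hoxa9-Pbx type site, was found on either strand in the 7 genes' windows. They occurred in 5.2% and 2.97% of all windows, and in 5.95% and 3.47% of genes. These matches describe the letters in a short window only.

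Bach1 had the highest ratio of the 10 genes at every time. Its log2 ratio was 0.76 at 6 h, 0.60 at 12 h and 0.47 at 24 h, or 1.69-, 1.52- and 1.38-fold. Ordered from the highest ratio, it was number 4 of 11450 genes at 6 h, number 12 of 11478 at 12 h and number 101 of 11565 at 24 h. The mean was 0.61 ± 0.05 (moderated SE, n = 3 arrays), 1.53-fold, and it rose (limma adjusted p = 0.0034, higher on 3 of 3 arrays). Its single probe lay near the middle of the brightness range, at the 52.7th percentile. Raw Cy5 signals were 432, 430 and 480 over backgrounds of 53 to 55, and raw Cy3 signals were 146, 163 and 186 over 41 to 43. Bach1 passed the test under all 13 other processings and left-out arrays tried, with means of 0.53 to 0.76 and adjusted p-values from 1.94e-05 to 0.031. Some of these could not change its mean of 0.61. With 1 probe measured on every array, the settings on probe filter and probe choice left it the same. The stricter threshold of 0.01 used the same fit.

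**Figure D1:**
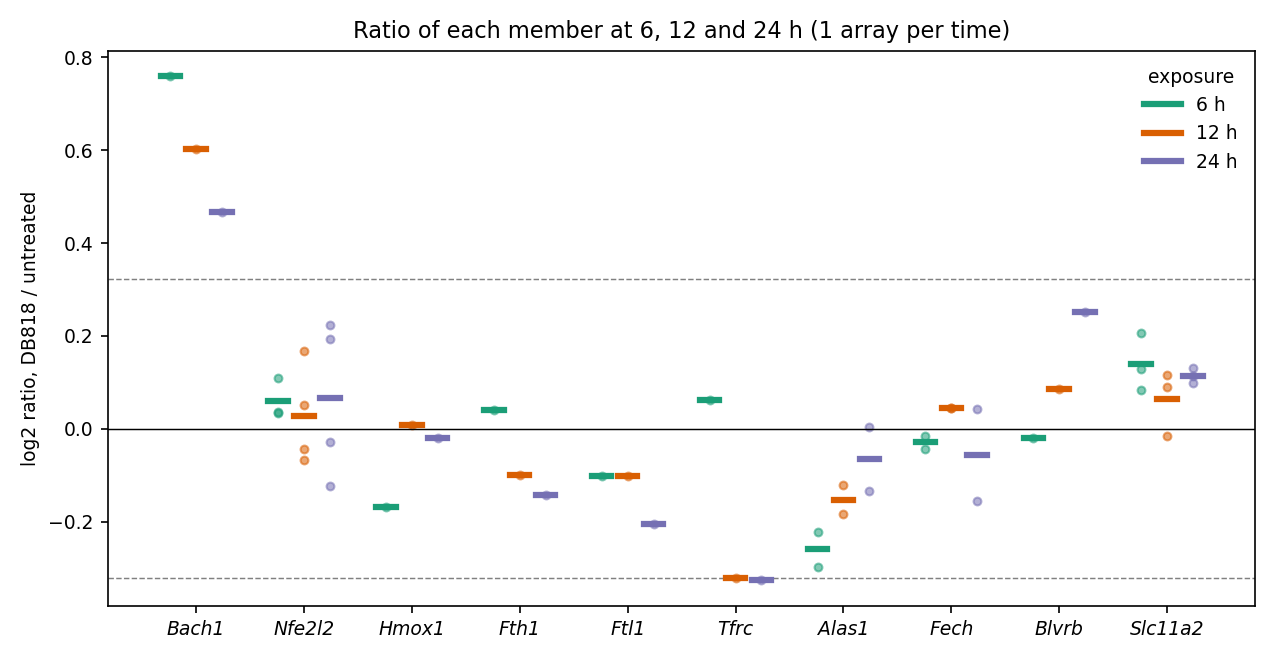
Log2 ratio (treated over untreated) of each of the 10 genes at 6, 12 and 24 h, with a bar for the gene value on the 1 array of each time, small circles for its probes, and dashed lines at 0.32 above and below 0. Bach1 stands at 0.76, 0.60 and 0.47, and Tfrc goes from 0.06 to -0.32 and -0.33.

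Nfe2l2, which encodes the activator Nrf2, stood at 0.06, 0.03 and 0.07 on the 6, 12 and 24 h arrays. Its mean of 0.05 ± 0.03 did not pass (adjusted p = 0.23). Its 4 probes did not agree at 24 h. Both RefSeq-transcript probes stood at -0.12 and -0.03, whereas both cDNA-clone probes stood at 0.19 and 0.22. Taking the brightest probe alone gave a mean of -0.05, so no direction is given for Nfe2l2.

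Hmox1, the inducible heme oxygenase and the best known target of Bach1, had ratios of -0.17, 0.01 and -0.02. The value at 6 h, where the Bach1 ratio was highest, was the lowest of the 3. The mean of -0.06 ± 0.04 did not pass (adjusted p = 0.30), and with median centring it was 0.06. Hmox1 was well above background, with raw Cy3 signals of 286, 276 and 287 and Cy5 signals of 505, 535 and 571. A further probe, annotated as part of heme oxygenase 1 but carrying another name, was not above background on any array and gives no second reading.

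Blvrb, a reductase of biliverdin and flavins, stood at -0.02, 0.09 and 0.25. Its value at 24 h was the highest of the 3, and the mean of 0.11 ± 0.05 did not pass (adjusted p = 0.16). Without the 6 h array the mean was 0.17 with an adjusted p of 0.032.

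Alas1, the first and rate-limiting enzyme of heme synthesis outside red cells, had ratios of -0.26, -0.15 and -0.06. Its values were lowest at 6 h, and the mean of -0.16 ± 0.04 fell (adjusted p = 0.032, lower on 3 of 3 arrays), though it was 0.24 with median centring in place of loess. Its pair of probes ordered the times alike, at -0.30, -0.18 and -0.13 for one and -0.22, -0.12 and 0.00 for the other. The call was lost without the 6 h array (-0.11, adjusted p = 0.066) and without the 12 h array (-0.16, adjusted p = 0.15). Fech, the last enzyme of the chain, stood at -0.03, 0.04 and -0.06, with a mean of -0.01 ± 0.03 that did not pass (adjusted p = 0.78).

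Ftl1, the ferritin light chain, had ratios of -0.10, -0.10 and -0.21. All 3 were below 0, and the mean of -0.14 ± 0.03 fell (adjusted p = 0.028), though it was 0.45 with median centring and -0.039, without passing, with a normexp offset of 0. The call was also lost without the 12 h array (-0.15, adjusted p = 0.12) and without the 24 h array (-0.10, adjusted p = 0.096). Fth1, the heavy chain that oxidises iron for storage, stood at 0.04, -0.10 and -0.14. Its mean of -0.07 ± 0.04 did not pass (adjusted p = 0.25), and without the 6 h array it was -0.12 with an adjusted p of 0.037. Both ferritin probes were among the brightest measured, at the 99.7th percentile for Fth1 and the 99.5th for Ftl1, and neither was saturated. RNA of near-identical ferritin copies could bind these probes too, so the values are uncertain in that respect.

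Tfrc, the transferrin receptor through which most cells take up iron, had a ratio of 0.06 at 6 h, -0.32 at 12 h and -0.33 at 24 h. The later times lay together and below the first. The mean of -0.20 ± 0.08 did not pass (adjusted p = 0.096), and without the 6 h array it was -0.32 with an adjusted p of 0.0015. From 6 to 24 h the ratio differed by -0.39, or 1.31-fold lower, which has no test with 1 array per time. Slc11a2, the transporter that moves iron out of endosomes, stood at 0.14, 0.06 and 0.11, and it rose (0.11 ± 0.03, adjusted p = 0.045), though its mean was -0.32 with median centring. Its 3 probes were at 0.13, 0.21 and 0.08 at 6 h, and in the same order at 0.12, 0.09 and -0.02 at 12 h. The gene was dim, at the 25.5th percentile of brightness. All but the first probe had raw Cy3 signals of 79 to 89 over backgrounds of 41 to 42. The call was lost without any 1 of the 3 arrays (adjusted p from 0.095 to 0.16).

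Over the 10 genes, 2 rose (Bach1, Slc11a2) and 2 fell (Alas1, Ftl1), and 6 did not pass. Over all genes 20.0% rose and 7.86% fell (27.9% in either direction), 2196 and 861 genes, or 4153 and 4477 with median centring. The share that rose equals that of all genes, and the median of the 10 means was -0.04 against 0.03 over all genes. At 6 h, 1 gene (Bach1) had a log2 ratio of at least 0.32, against 1.79% of all genes, and 0 were as much lower, against 0.725%. At 12 h, Bach1 was higher (1.39% of all genes) and Tfrc lower (0.723%), the latter at the very edge of the mark. At 24 h, Bach1 was again higher (2.72%) and Tfrc lower (1.46%). The ratio at 24 h was lower than at 6 h by at least the same size for Tfrc alone, against 1.05% of all genes, and higher by as much for 0 of the 10, against 1.59%.

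**Figure D2:**
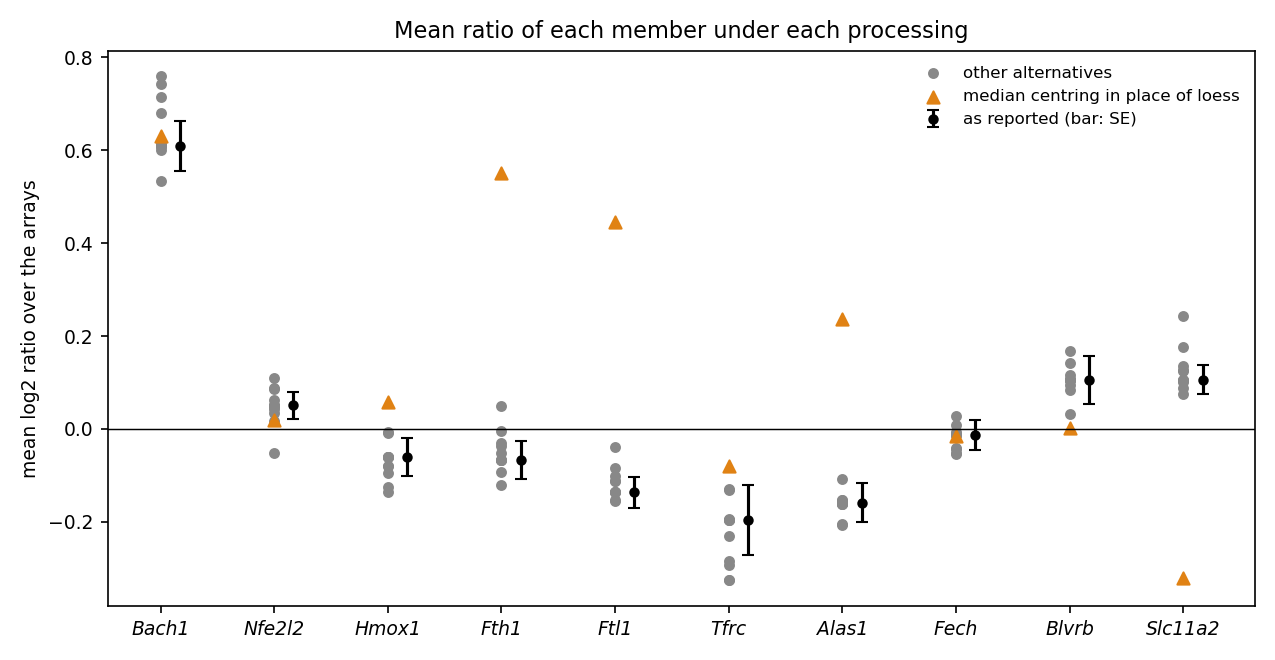
Mean log2 ratio (treated over untreated) of each gene, with black points and moderated SE bars for the value reported (n = 3 arrays). Grey points show the other processings and left-out arrays, and orange triangles show median centring in place of loess. Bach1 lies between 0.53 and 0.76 throughout, while Alas1, Fth1, Ftl1, Hmox1 and Slc11a2 change sign with median centring.

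The signal of each channel shows which side a ratio moved with. These are log2 levels after quantile normalisation over all channels, and they are compared within a gene only. Their differences depart from the ratios and can differ in sign. Hmox1 at 12 h had a ratio of 0.01, but read 8.48 treated and 8.53 untreated. Over all genes, 12.9% had all 3 treated levels below the untreated ones and 11.2% above, whereas 7.86% fell and 20.0% rose by the ratios. Bach1 in untreated cells read 7.58, 7.70 and 7.96 on the 6, 12 and 24 h arrays, and in treated cells 8.27, 8.21 and 8.34. All 3 treated levels were above all 3 untreated levels, as for 11.2% of all genes. The untreated levels spanned 0.38 and the treated ones 0.13, so the narrowing of the Bach1 ratio from 6 to 24 h went with a higher untreated reading. Over all genes the median span of the untreated channels was 0.12, and 95% of genes had a span under 0.34.

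In Alas1, too, the untreated side spanned more. Its treated and untreated readings overlapped across arrays, though within each array the treated one was lower. Its untreated level read 11.83, 11.69 and 11.50 and its treated level 11.58, 11.54 and 11.44. The span was 0.33 among untreated and 0.14 among treated readings, and the untreated one lay within the limit of 0.34 for 95% of genes. In Tfrc and Blvrb the treated side moved. Tfrc read 8.67, 8.64 and 8.71 untreated, a span of 0.08, and 8.66, 8.26 and 8.30 treated, a span of 0.40. Blvrb read 7.47, 7.50 and 7.56 untreated, a span of 0.09, and 7.38, 7.52 and 7.73 treated, a span of 0.35. Over all genes the median span of the treated channels was 0.13, and 95% of genes had a span under 0.39. The treated span of Blvrb lay within that limit. The sources used here do not say whether the untreated cells were collected at 6, 12 and 24 h, and the part of culture time in these readings was not tested.

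For Hmox1 the treated levels were 8.44, 8.48 and 8.57 and the untreated levels 8.69, 8.53 and 8.66. The treated and untreated readings overlapped across arrays. Within each array the treated one was lower, although the ratio at 12 h was 0.01. Ftl1 read 14.31, 14.15 and 14.08 untreated and 14.24, 14.03 and 13.97 treated, so that both channels were lower on the later arrays. Its readings overlapped across arrays too, though within each array the treated one was lower. Of the 10 genes, 1 (Fech) had all 3 treated levels below the untreated ones, as did 12.9% of all genes, and it overlapped when only the mean brightness of the arrays was equalised.

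**Figure D3:**
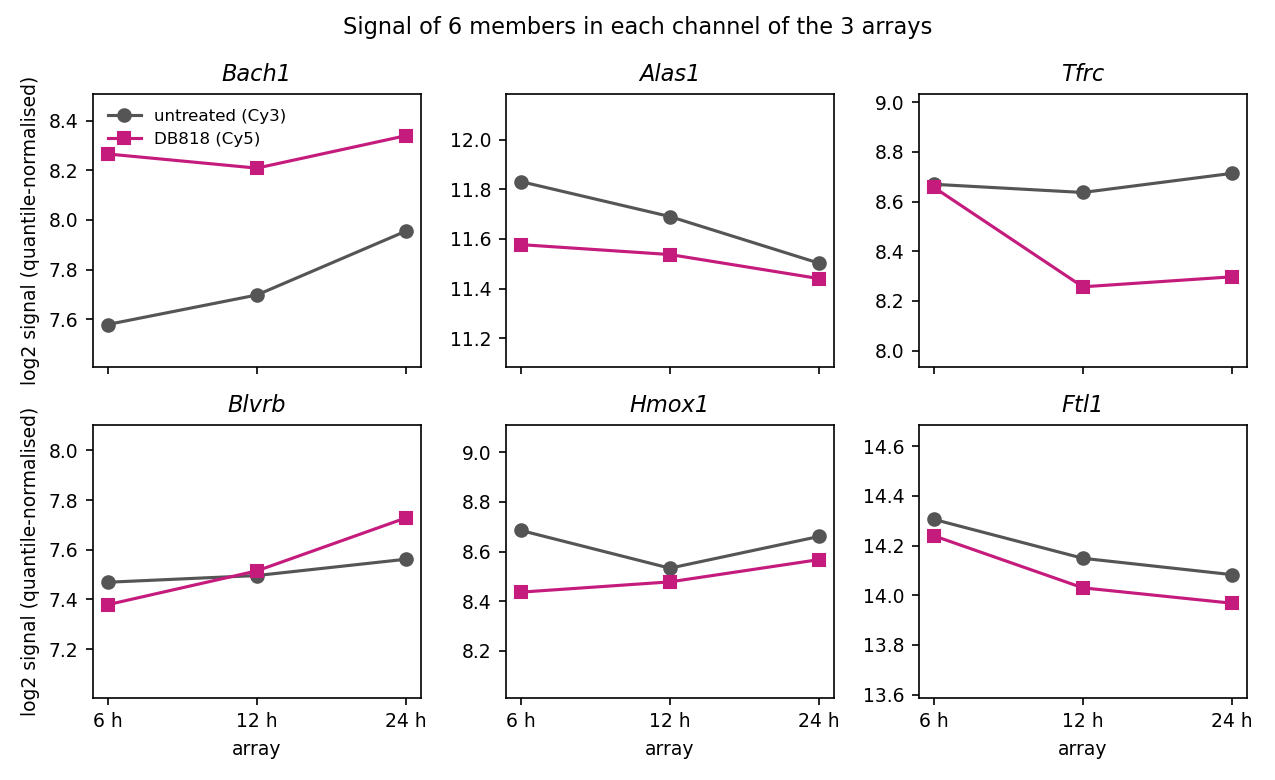
Log2 signal (quantile-normalised) of 6 genes in the untreated Cy3 channel (grey circles) and the DB818 Cy5 channel (magenta squares) of the 6, 12 and 24 h arrays, 1 point per array, each panel spanning an equal log2 height. The untreated line moves in Bach1 (7.58 to 7.96) and Alas1 (11.83 to 11.50), and the treated line in Tfrc (8.66 to 8.30) and Blvrb (7.38 to 7.73). The untreated span of Alas1 and the treated span of Blvrb lay within the limit for 95% of genes.

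The wider pathways were read from 6 lists, which together hold 119 genes, 100 of them measured. Of these 100, 22 rose and 15 fell, beside 20.0% and 7.86% of all genes, and the counts of each list stand against the same shares. The share that rose is close to that of all genes. In the mean, 4 reached 0.32 in size, namely Abcb6, G6pdx, Gclc and Lcn2, the last without passing the test, beside 1.91% of all genes.

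Among 12 measured partners and regulators of Bach1, 3 rose and 1 fell, with a median of 0.01. Mafk, a small Maf partner of Bach1, stood at 0.19, 0.17 and 0.22 and rose (0.19 ± 0.03, adjusted p = 0.0072), though it was -0.07 with median centring. Keap1, the adaptor that hands Nrf2 over for degradation, stood at 0.28, 0.17 and 0.15 and rose (0.20 ± 0.04, adjusted p = 0.011). Xpo1, the exportin that carries Bach1 out of the nucleus, rose (0.13 ± 0.03, adjusted p = 0.027). Nfe2, a relative of Nrf2, fell (-0.14 ± 0.03, adjusted p = 0.017), though it was 0.21 with median centring. Maff, another small Maf, had a mean of 0.16 ± 0.05 that did not pass (adjusted p = 0.058), with 0.32 at 24 h.

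Of 27 measured antioxidant response targets, 4 rose, 6 fell and 17 did not pass, with a median of -0.02. Neither Hmox1 nor a ferritin was among those with the largest means. Gclc, the catalytic subunit of glutathione synthesis, had ratios of 0.49, 0.30 and 0.20 and rose (0.33 ± 0.05, adjusted p = 0.0083). Abcb6, a porphyrin transporter, stood at 0.43, 0.46 and 0.46 and rose (0.45 ± 0.03, adjusted p = 0.0034). The glutathione-conjugate exporter Abcc1 rose as well (0.27 ± 0.04, adjusted p = 0.0063), though its brightest probe alone gave 0.054, which did not pass.

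G6pdx, the first enzyme of the pentose phosphate pathway, had ratios of -0.36, -0.41 and -0.48 and fell (-0.42 ± 0.03, adjusted p = 0.0034), though its mean was -0.0041 with median centring. Pgd, which makes NADPH in the same pathway, fell (-0.28 ± 0.04, adjusted p = 0.0061), and so did the transaldolase Taldo1 (-0.17 ± 0.03, adjusted p = 0.010), though with median centring they stood at 0.16 and 0.42. Hmox1, Fth1, Fech and Blvrb were among the 17 that did not pass.

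Heme synthesis had 17 measured genes, of which 4 rose, 3 fell and 10 did not pass, with a median of -0.01. Abcb6 is on this list too. Cox15, which makes heme A, rose (0.17 ± 0.03, adjusted p = 0.010), as did Slc25a38, the mitochondrial glycine carrier (0.14 ± 0.04, adjusted p = 0.029). Beside Alas1, the protoporphyrinogen oxidase Ppox (-0.12 ± 0.03, adjusted p = 0.026) and the heme O synthase Cox10 (-0.14 ± 0.03, adjusted p = 0.018) fell.

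Of 10 measured genes of heme breakdown and transport, 3 rose and 1 fell, with a median of 0.01. Blvra, the main biliverdin reductase, stood at -0.08, -0.26 and -0.35 and fell (-0.23 ± 0.05, adjusted p = 0.020), though it did not pass with median centring (-0.067) or without the probe filter (-0.086). The heme-binding membrane proteins Pgrmc1 (0.21 ± 0.04, adjusted p = 0.010) and Pgrmc2 (0.16 ± 0.03, adjusted p = 0.011) rose, and so did Slc46a1, a folate and heme carrier (0.12 ± 0.03, adjusted p = 0.026).

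Iron uptake, storage, export and regulation had 21 measured genes, of which 4 rose, 3 fell and 14 did not pass, with a median of 0.01. Cp, the ferroxidase ceruloplasmin, had ratios of 0.11, 0.34 and 0.37 and rose (0.27 ± 0.05, adjusted p = 0.013). Slc25a28, a mitochondrial iron importer, rose (0.18 ± 0.03, adjusted p = 0.0082). Fbxl5, the iron sensor that degrades iron regulatory protein, also rose (0.11 ± 0.03, adjusted p = 0.044), though it was -0.26 with median centring. Beside Ftl1, the metal importer Slc39a8 (-0.18 ± 0.04, adjusted p = 0.020) and the ferritin degradation receptor Ncoa4 (-0.13 ± 0.04, adjusted p = 0.046) fell.

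A pair of genes had their largest sizes at 24 h without passing on the mean. The iron-chelator carrier Lcn2 stood at 0.01, 0.25 and 0.71 (0.32 ± 0.12, adjusted p = 0.078), and the phagosomal metal transporter Slc11a1 at -0.04, -0.11 and -0.34 (-0.16 ± 0.06, adjusted p = 0.076).

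All 23 iron-sulfur assembly genes were measured, and 5 rose and 2 fell, with a median of 0.02. Lyrm4, a subunit of the cysteine desulfurase complex, stood at 0.28, 0.33 and 0.11 and rose (0.24 ± 0.05, adjusted p = 0.013). The ferredoxin Fdx1 (0.20 ± 0.04, adjusted p = 0.011) and the glutaredoxin Glrx5 (0.16 ± 0.03, adjusted p = 0.011) rose too. The co-chaperone Hscb (-0.18 ± 0.03, adjusted p = 0.0090) and Ciao2b, of the cytosolic machinery (-0.12 ± 0.03, adjusted p = 0.025), fell, though they stood at 0.00 and 0.21 with median centring.

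The 37 calls on the lists depended on the arrays used. All 37 genes had the same sign on 3 of 3 arrays. Selection by the mean of these same arrays favours this, so it adds no support to the calls. Without the 6 h array 33 of the 37 calls held, without the 24 h array 20, and without the 12 h array 5, those of Gclc, G6pdx, Pgd, Abcb6 and Pgrmc1 (34 of 37 at an unadjusted limma p under 0.05). Of all 3057 genes called, 83.4, 61.6 and 17.9% held in the same order. With Agilent's processed signals 8 of the 37 held, against 32.2% of all genes called. Other settings also ended calls with a smaller mean. Median centring did so for Cox15 (0.089), Slc25a38 (0.093) and Pgrmc2 (0.080), and the brightest probe for Pgrmc2 (0.049). Leaving out the probe filter did so for Xpo1 (0.054), Slc39a8 (-0.067) and Fbxl5 (0.075). An offset of 0 did so for Taldo1 (-0.069), Slc46a1 (0.087), Xpo1 (0.10), Slc25a28 (0.15), Glrx5 (0.15), Fdx1 (0.18) and Keap1 (0.18), among others.

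**Figure D4:**
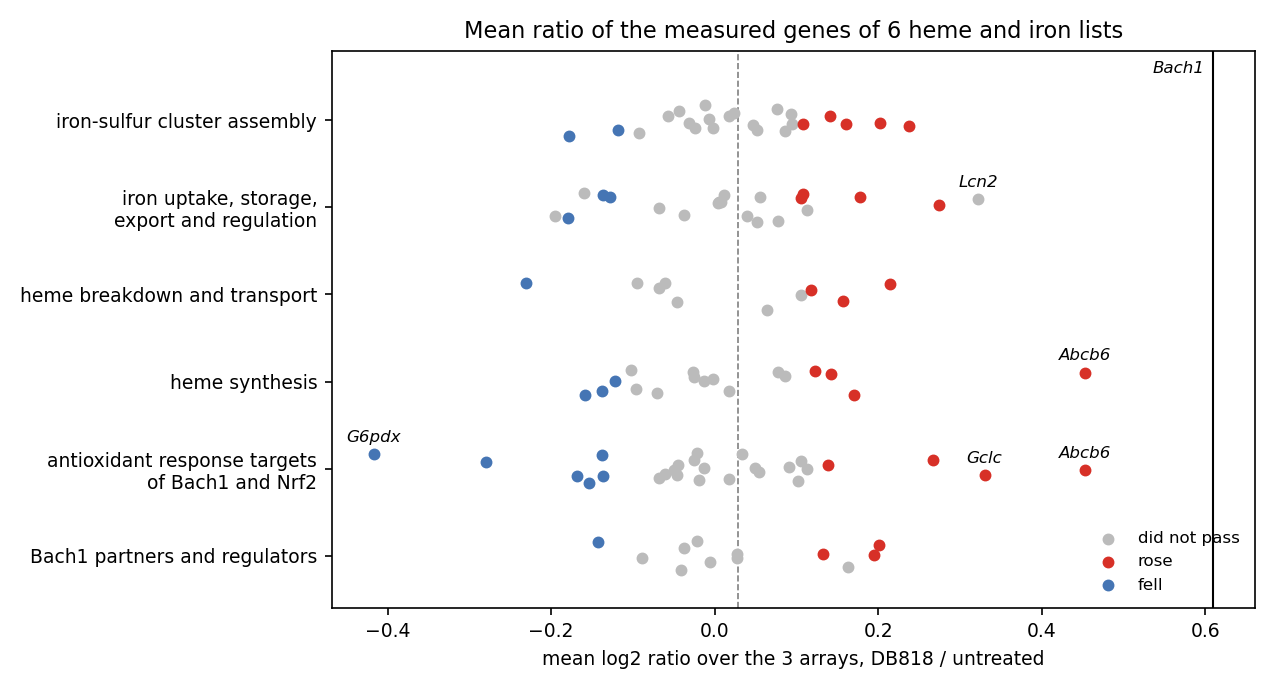
Mean log2 ratio over the 3 arrays (treated over untreated) of every measured gene of the 6 lists, coloured by the limma test (rose, fell, did not pass), with a dashed line at the median of all genes (0.03) and a solid line at Bach1 (0.61). Every listed gene lies below Bach1, with Abcb6 at 0.45 and G6pdx at -0.42 farthest out on each side, and with median centring 10 of the 32 calls named in the text change sign.

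Cell type markers were set beside these values. Of 13 myeloid progenitor markers, 11 were measured, 4 rose and 5 fell, where 27.9% of all genes did either. The granule genes Mpo (-0.32, -0.52 and -1.18) and Elane (-0.58, -0.57 and -0.71) had the lowest means of that list, -0.67 ± 0.14 and -0.62 ± 0.04, and the integrin Itgam the highest, 0.38 ± 0.03. The summed level of the 11 was 15.22 to 15.25 in untreated and 15.08 to 15.26 in treated cells. Of 15 erythroid markers, 13 had a probe under their symbol and 1 (Nfe2) was measured on all 3 arrays. Gata1, Klf1, Hba-a1, Hbb-b1, Epor and Alas2 were among those without a measured value on all 3. The summed erythroid level, here that of Nfe2, was 11.09 to 11.15 in untreated and 10.95 to 11.03 in treated cells. Of 12 markers of iron-recycling macrophages, 5 were measured and 3 fell (Vcam1, Csf1r and Mrc1), beside 7.86% of all genes. Adgre1 (0.01) and Slc40a1 (0.11) did not pass. The summed level of the 5 was 10.15 to 10.40 in untreated and 10.11 to 10.28 in treated cells. The part of these markers in the values above was not tested.

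The pattern closest to that of Bach1 over the 3 ratios, among 9472 genes with an established symbol, was that of the histone gene H2ac4 (0.62, 0.44 and 0.51), at a Euclidean distance of 0.21 log2 units. Metrn and Hmg20b followed at 0.22 and 0.23, and Eif4ebp2 and Syne3 at 0.28 and 0.29. Closest to Hmox1 were Csrp1 at 0.014, Arhgdib at 0.025, B4galt3 at 0.026, Pygo2 at 0.030 and Ptpn21 at 0.033, where many genes lie because most ratios were small.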

How the data were processed

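RNA of treated and untreated MigA9 cells was compared on 3 two-colour Agilent arrays. The authors extracted the signals with Agilent Feature Extraction 9.1.3.1, per the submitters' processing notes, and each channel's intensity and local background are listed spot by spot, per the file headers. A deposited table of log10 ratio values matched the scanner's own ratios exactly. Log2 ratios of the deposited intensity values were computed here.

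Mean foreground and median background went through normexp with an offset of 50 and then loess within arrays, in limma 3.58.1 under R 4.3.3. The offset draws ratios of dim genes toward 1. Control spots had weight 0 and outlier spots were left out. Genes were averaged over those probes that cleared background in Cy3 and Cy5 without saturation (40.6, 40.6 and 41.0% of 41174 probes cleared it). The median Cy3 signal was 78.2, 79.2 and 79.3 against backgrounds of 41, 42 and 42, and with 3 arrays the number of arrays limits the precision. A RefSeq table named 22864 probes through their accession, 6732 through the symbol and 3498 through an older symbol, while 8080 kept the name in the file.

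The members and lists were chosen with earlier results of these data known. All members are named, and of each list the genes past the test with at most the 3 highest and 3 lowest means and the 3 largest single-time sizes. Alternatives changed the background correction, normalisation, probe filter, probe rule, scaling, array weights and thresholds, or left out 1 array. Keeping only probes that passed on all 3 arrays was an alternative chosen after seeing the data. The test was checked on simulated data with independent normal errors and constant planted changes. The simulation held no dye bias and no change with time, so it could not assess their effect on the calls.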

Additional observations from a re-analysis of the deposited data

How the results depend on the processing

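Bach1 rose under every alternative run, though those on probes or on the threshold could not change its mean. Of the 32 calls named in the text, 18 held with a normexp offset of 0, 17 with median centring in place of loess (10 reversed), 8 with Agilent's processed signals and 6 without the 12 h array. Median centring leaves a brightness trend, with the dimmest 10% of genes at medians of -0.69, -0.64 and -0.68 and the brightest at 0.43, 0.37 and 0.43. It reversed Alas1 (0.24), Fth1 (0.55), Ftl1 (0.45), Hmox1 (0.058), Slc11a2 (-0.32), Ciao2b (0.21), Fbxl5 (-0.26), Hscb (0.0040), Maff (-0.36), Mafk (-0.067), Nfe2 (0.21), Pgd (0.16) and Taldo1 (0.42). Fech reversed with array weights (0.029) and without the 24 h array (range -0.043 to 0.0080 over left-out arrays), Fth1 with offset 0 (0.050) and Nfe2l2 with the brightest probe (-0.052). Of all genes, 1141 rose with offset 0, 593 with processed signals, 4187 rose and 2122 fell with array weights, 4153 and 4477 with median centring, 672 and 228 at an adjusted p under 0.01, and 404 to 2289 and 143 to 956 without 1 array. Of the 10 members, 0 fell with plain subtraction or offset 0, 4 rose and 1 fell with median centring, 1 and 0 with processed signals or an adjusted p under 0.01, 1 and 1 without the filter, 4 fell with array weights (Tfrc and Fth1 among them), and 1 to 2 rose and 0 to 3 fell without 1 array. At 0.32 or more in size on the log2 scale, 2 members were higher at 6 h with offset 0, and median centring gave 3 higher and 1 lower at 6 h, 3 higher at 12 h, and 4 higher and 0 lower at 24 h. At 1.5-fold 0 were lower at 12 h, and 0 were higher and 0 lower at 24 h. From 6 to 24 h, 1 member was higher with plain subtraction, offset 0, median centring or processed signals, 2 were lower with plain subtraction, offset 0 or processed signals, and 0 were lower at 1.5-fold. For these counts by size, the share of all genes was computed with the reported processing and mark only. The counts under other settings are therefore not read as results about the members. The cause of the differences between settings was not tested.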
